A study of Mus musculus and Homo sapiens with 33 samples.

Results

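The Aurora kinases and the chromosomal passenger complex were followed in KPL cells, a murine lung adenocarcinoma line, after deletion of Lin9. The 7 genes were taken by symbol from the RNA count matrix, which holds 38924 Ensembl gene IDs: Aurka, Aurkb and Aurkc for the 3 kinases, Bora for a cofactor of Aurora A, and Incenp, Birc5 and Cdca8 for the non-catalytic subunits of the passenger complex. Of these, 6 had enough reads to be tested and Aurkc did not.

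There were 3 libraries of cells treated with 4-hydroxytamoxifen (4-OHT) and 3 of control cells, which the sample descriptions name EtOH. The labels give a 4-OHT treatment of 72 hours at a dose written as 10 nm, which deletes Lin9, the gene of a core subunit of the MuvB complex. Both groups are the same line, and the labels name it only as KPL, without its alleles, the form of Cre or whether it is 1 clone. An effect of 4-OHT itself and one of Lin9 deletion cannot be told apart with these groups. The labels do not describe the libraries as separate cultures, so the p-values reflect the variation among these libraries only, and that variation may be technical.

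Aurora kinases are serine/threonine kinases of cell division. Aurora A sits at centrosomes and spindle poles, where Tpx2 activates it, and with Bora it phosphorylates and switches on Plk1 before mitosis. Aurora B is held by the scaffold INCENP together with survivin (Birc5) and borealin (Cdca8). This passenger complex moves from centromeres, where it corrects faulty spindle attachments, to the central spindle and midbody, where it acts in cytokinesis. Aurora C can take the place of Aurora B in germ cells. Many genes of late cell cycle phases carry a cell cycle homology region (CHR) in their promoters, which the MuvB subunit LIN54 can bind, often with CCAAT boxes nearby.

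Promoter sequences are shown for the members because MuvB acts at promoters, so that the letters can be set beside the changes in RNA. The RefSeq promoter table of GRCm38.p6 held 1 window for each of 4 members, reaching from 250 bases before to 50 bases after the annotated start. Aurka lies on the minus strand of chr2:172370521-172370820, Cdca8 on the minus strand of chr4:124936868-124937167, Birc5 on the plus strand of chr11:117848987-117849286 and Aurkc on the plus strand of chr7:6995135-6995434. Each sequence reads 5′ to 3′ on the gene's strand, and capitals mark the letters TTTGAA or TTCGAA (CHR) and CCAAT, on either strand.
Aurka: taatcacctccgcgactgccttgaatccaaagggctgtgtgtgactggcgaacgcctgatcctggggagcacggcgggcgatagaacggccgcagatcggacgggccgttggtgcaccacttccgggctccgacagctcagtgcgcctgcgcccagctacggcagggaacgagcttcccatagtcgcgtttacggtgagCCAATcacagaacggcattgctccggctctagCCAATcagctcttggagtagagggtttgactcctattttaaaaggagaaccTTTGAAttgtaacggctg
Cdca8: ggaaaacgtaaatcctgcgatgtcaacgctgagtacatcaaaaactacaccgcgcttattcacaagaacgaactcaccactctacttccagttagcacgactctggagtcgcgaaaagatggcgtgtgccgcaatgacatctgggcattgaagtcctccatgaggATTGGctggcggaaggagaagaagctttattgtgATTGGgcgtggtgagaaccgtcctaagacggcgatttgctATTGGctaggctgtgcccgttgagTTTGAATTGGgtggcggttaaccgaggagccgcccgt
Birc5: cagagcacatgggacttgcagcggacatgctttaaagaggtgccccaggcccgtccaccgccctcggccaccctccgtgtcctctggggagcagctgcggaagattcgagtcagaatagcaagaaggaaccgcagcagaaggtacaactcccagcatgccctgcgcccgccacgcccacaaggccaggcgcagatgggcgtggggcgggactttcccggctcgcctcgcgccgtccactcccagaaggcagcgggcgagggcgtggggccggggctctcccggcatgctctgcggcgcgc
Aurkc: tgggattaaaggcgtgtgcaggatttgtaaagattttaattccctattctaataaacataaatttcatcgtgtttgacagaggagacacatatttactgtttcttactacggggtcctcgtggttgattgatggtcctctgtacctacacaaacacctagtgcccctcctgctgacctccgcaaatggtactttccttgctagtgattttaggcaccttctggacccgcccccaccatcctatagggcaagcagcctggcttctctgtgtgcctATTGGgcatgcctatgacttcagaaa
The letters TTTGAA stood at bases 33 to 38 in Aurka and 14 to 19 in Cdca8, in both genes in the forward direction. Bases are counted from 1 at the annotated start that each window uses. The RefSeq span of Aurka runs to 172370886, beyond the upstream end of its window, so the start used lies inside the span. The start used for Aurkc also lies inside its span, which begins at 6995347. Which start these cells use was not tested. Aurka had CCAAT at bases -51 to -47 and -19 to -15. Cdca8 had CCAAT on the opposite strand at 4 places, and the one nearest the end of the window, at bases 19 to 23, shares a base with its TTTGAA. The Birc5 window held neither set of letters, and the Aurkc window held CCAAT once, on the opposite strand. CHR letters were found in 19.2% and CCAAT in 37.4% of all 32851 windows of this length, and both in 7.52%. Of these windows, 21233 belong to genes that were not tested, with CHR letters in 22.2%. For tested genes, CHR letters were in 26.5% of windows of genes called lower, 10.4% of those called higher and 13.3% of those not called. CCAAT was in 45.6%, 34.3% and 37.4% of these windows, in the same order. TTCGAA is its own reverse complement and was counted once. A match is a description of letters and not a binding site, and no match says only that these letters are not in this window. Aurkb, Incenp and Bora had no entry in the table.

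Each of the 6 tested genes was lower after 4-OHT. Aurka stood at 46.1% of control, Bora, Cdca8, Incenp and Aurkb between 65.0% and 71.1%, and Birc5 at 83.0%. Among all 13355 genes tested, 5.17% were lower and 4.61% higher, 9.79% in all, at a Benjamini-Hochberg adjusted p under 0.05 in the quasi-likelihood test of edgeR. The median log2 fold change of the 6 genes was -0.55, against 0.00052 for all genes tested. For all 6 genes the 4-OHT and control levels did not overlap, as was so, with the 4-OHT level lower, for 12.2% of all genes tested. All 6 had at least 176 reads in every library, so none passed the low-count filter through 1 group. In bulk RNA, fewer cells in mitosis and less RNA per cell cannot be told apart. Levels below are CPM, counts scaled to a common depth on library sizes scaled by edgeR's TMM method. They are not compared between genes because transcript lengths were not used here.

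**Figure D1:**
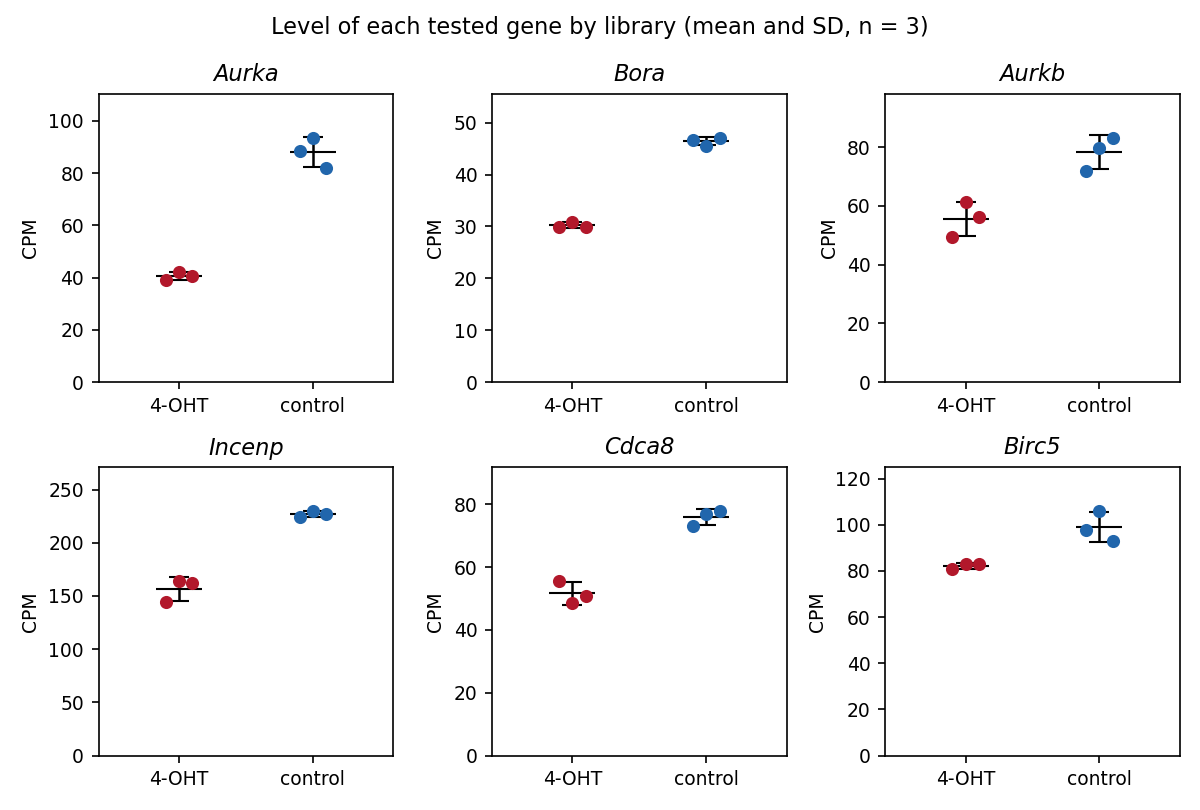
Level of the 6 tested genes in CPM (y axes, from 0) in the 4-OHT and the control libraries; points are libraries and bars the mean and SD of 3. No 4-OHT point reaches the lowest control point in any panel, with a gap of 10.2 CPM for Birc5.

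Aurka (ENSMUSG00000027496, chromosome 2, 172356190 to 172370886 in RefSeq GRCm38.p6) encodes the spindle pole kinase. It was counted at 230, 250 and 239 reads in the 4-OHT libraries, against 517, 545 and 478 reads in the control libraries. Its level was 39.0, 42.2 and 40.6 CPM in the 4-OHT libraries and 88.5, 93.6 and 81.9 CPM in the control libraries. The highest 4-OHT library lay 39.8 CPM below the lowest control library. Aurka averaged 40.6 ± 1.59 CPM after 4-OHT and 88.0 ± 5.85 CPM in control cells (SD, n = 3 each). This is a change of -1.12 on the log2 scale (SE 0.07, adjusted p = 2.8e-25 by edgeR). Of all genes tested, 31 fell further, which is 0.232%. The Aurka span overlaps that of Cstf1, the gene of a cleavage stimulation factor subunit, over 242 bases, and the use of strand in counting is not given in the sources used here. Cstf1 had 349, 330 and 331 reads after 4-OHT and 401, 391 and 374 in control cells, which is -0.22 on the log2 scale (SE 0.07, adjusted p = 0.014 by edgeR). How far shared reads enter either count was not tested.

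Bora (ENSMUSG00000022070, chromosome 14, 99046377 to 99074540) encodes the cofactor through which Aurora A reaches Plk1. It was at 29.8, 30.9 and 29.9 CPM in the 4-OHT libraries, against 46.7, 45.5 and 47.1 CPM in the control libraries. The 3 values of each group lay close together, with coefficients of variation of 1.94% after 4-OHT and 1.82% in control cells, where read counting alone would give 7.49% and 6.07%. The log2 fold change was -0.62 (SE 0.08, edgeR adjusted p = 5.7e-09). The span of Bora overlaps that of Mzt1, the gene of a gamma-tubulin complex protein, over 77 bases, and Mzt1 also fell, to 82.3% of control (log2 fold change -0.28, SE 0.07, edgeR adjusted p = 0.0030).

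Aurkb (ENSMUSG00000020897, chromosome 11, 69045624 to 69051664) encodes the catalytic subunit of the passenger complex. Its level was 49.5, 61.2 and 56.2 CPM after 4-OHT, against 71.9, 79.7 and 83.3 CPM in control cells. It had the widest relative spread of the 6 tested genes in both groups, with a coefficient of variation of 10.6% after 4-OHT and 7.45% in control cells, and the groups were still 10.7 CPM apart. The mean was 55.6 ± 5.88 CPM after 4-OHT and 78.3 ± 5.83 CPM in control cells, a change of -0.49 on the log2 scale (SE 0.07, adjusted p = 1.7e-08 by edgeR).

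Incenp (ENSMUSG00000024660, chromosome 19, 9872295 to 9899489) encodes the scaffold whose C-terminal part binds and activates Aurora B. Its level was 144.0, 163.6 and 162.2 CPM after 4-OHT, against 224.4, 229.8 and 226.8 CPM in control cells. The control values had a coefficient of variation of 1.19%, and 4-OHT replicate 1 was the lowest library. The log2 fold change was -0.54 (SE 0.04, edgeR adjusted p = 5.4e-18), on 2775 reads after 4-OHT and 3972 in control cells, summed over 3 libraries each. A RefSeq pseudogene, Gm19054, overlaps the annotated Incenp span over 693 bases and has no line of that name in the matrix.

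Cdca8 (ENSMUSG00000028873, chromosome 4, 124918465 to 124936917) encodes borealin, which binds INCENP and survivin in the targeting module of the complex. Its level was 55.6, 48.4 and 50.7 CPM after 4-OHT, against 73.1, 76.8 and 77.8 CPM in control cells. In contrast to Aurkb and Incenp, 4-OHT replicate 1 was here the highest library of its group. The log2 fold change was -0.56 (SE 0.07, edgeR adjusted p = 1.1e-10).

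Birc5 (ENSMUSG00000017716, chromosome 11, 117849237 to 117855743) encodes survivin, the subunit that reads phosphorylated histone H3 at centromeres. Its level was 80.7, 82.8 and 82.8 CPM after 4-OHT, against 97.9, 106.0 and 93.1 CPM in control cells. The control libraries spread over a wider range than the gap between the groups, and the fall was the smallest of the 6. The log2 fold change was -0.27 (SE 0.06, edgeR adjusted p = 0.00031), and 7.65% of all genes tested fell further. Its adjusted p was 0.016 in DESeq2.

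Aurkc (ENSMUSG00000070837, chromosome 7, 6995347 to 7003091), the germ cell paralogue, had 0, 0 and 1 read in the 4-OHT libraries and 0 reads in each control library. A count of 0 allows up to 3 reads, or 0.507 to 0.512 CPM per library, so a difference was not detectable at this depth. No fold change is given for it.

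**Figure D2:**
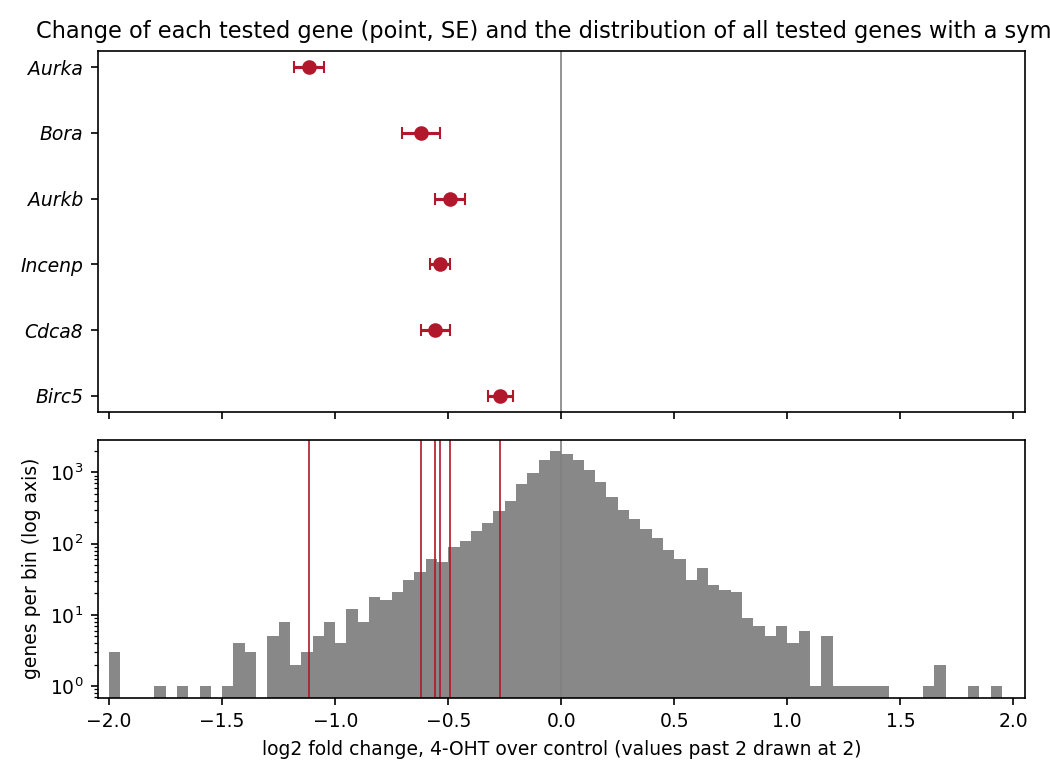
Top, log2 fold change of 4-OHT over control for the 6 tested genes (points, bars are SE); bottom, number of tested genes with a symbol per bin of the same scale on a log axis, with red lines at the 6 genes. Aurka is at -1.12, 4 genes lie between -0.62 and -0.49, and Birc5 at -0.27 lies nearest to 0.

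The authors' deposited table lists the same 6 genes and not Aurkc. In the authors' deposited table the log2 fold change was -1.12 for Aurka, -0.62 for Bora, -0.56 for Cdca8, -0.54 for Incenp, -0.50 for Aurkb and -0.27 for Birc5. The FDR of Birc5 was 0.00024 in the authors' deposited table, the highest among the 6. Both sets of fold changes come from the same reads and are no independent support for each other.

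Whether the genes fell unequally was examined with the ratio of their read counts within each library, which needs no scaling between libraries. The 6 pairs were compared by an exact permutation test over the libraries, two-sided, for which 3 against 3 libraries allow no p below 0.1. The ratio of Aurka to Aurkb reads was 0.788, 0.689 and 0.722 after 4-OHT, against 1.23, 1.17 and 0.984 in control cells. The groups did not overlap, and control replicate 3 lay nearest to the 4-OHT libraries. On the log2 scale the mean ratio was -0.45 ± 0.10 after 4-OHT and 0.17 ± 0.17 in control cells (SD, n = 3 each), a difference of -0.62 (exact permutation p = 0.1, adjusted p = 0.2 over 6 pairs). The ratio of Aurka to its cofactor Bora was 1.31, 1.37 and 1.36 after 4-OHT, against 1.89, 2.06 and 1.74 in control cells, also without overlap (difference -0.49 on the log2 scale, exact permutation p = 0.1, adjusted p = 0.2).

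Within the passenger complex, the ratios of the kinase and of borealin to the scaffold overlapped between the groups. The ratio of Aurkb to Incenp reads was 0.344, 0.374 and 0.346 after 4-OHT, against 0.320, 0.347 and 0.367 in control cells. The log2 difference of 0.04 was smaller than the SD of either group, 0.07 after 4-OHT and 0.10 in control cells (exact permutation p = 0.6, adjusted p = 0.72). The ratio of Cdca8 to Incenp reads was 0.386, 0.296 and 0.313 after 4-OHT, against 0.326, 0.334 and 0.343 in control cells. Replicate 1 of the 4-OHT libraries was above and replicates 2 and 3 were below all control libraries (log2 difference -0.02, SD 0.20 after 4-OHT and 0.04 in control cells, exact permutation p = 0.9, adjusted p = 0.9). Without 4-OHT replicate 1 the log2 difference of the Cdca8 to Incenp ratio was -0.14 and the groups did not overlap (exact permutation p = 0.1). The exact permutation p-values of 0.6 and 0.9 with all libraries do not show that the ratios were equal.

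The ratio of survivin to the scaffold was higher in every 4-OHT library than in any control library, at the smallest p that the design allows. The ratio of Birc5 to Incenp reads was 0.561, 0.506 and 0.510 after 4-OHT, against 0.436, 0.461 and 0.410 in control cells. The log2 difference was 0.27 (SD 0.08 in each group, exact permutation p = 0.1, adjusted p = 0.2). The ratio of Aurkb to Birc5 reads was 0.613, 0.739 and 0.678 after 4-OHT, against 0.734, 0.752 and 0.895 in control cells, where the groups overlapped (log2 difference -0.23, exact permutation p = 0.2, adjusted p = 0.3). The difference was -0.14 without control replicate 3 (exact permutation p = 0.3), and without 4-OHT replicate 2 it was -0.29 and the groups did not overlap (exact permutation p = 0.1).

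**Figure D3:**
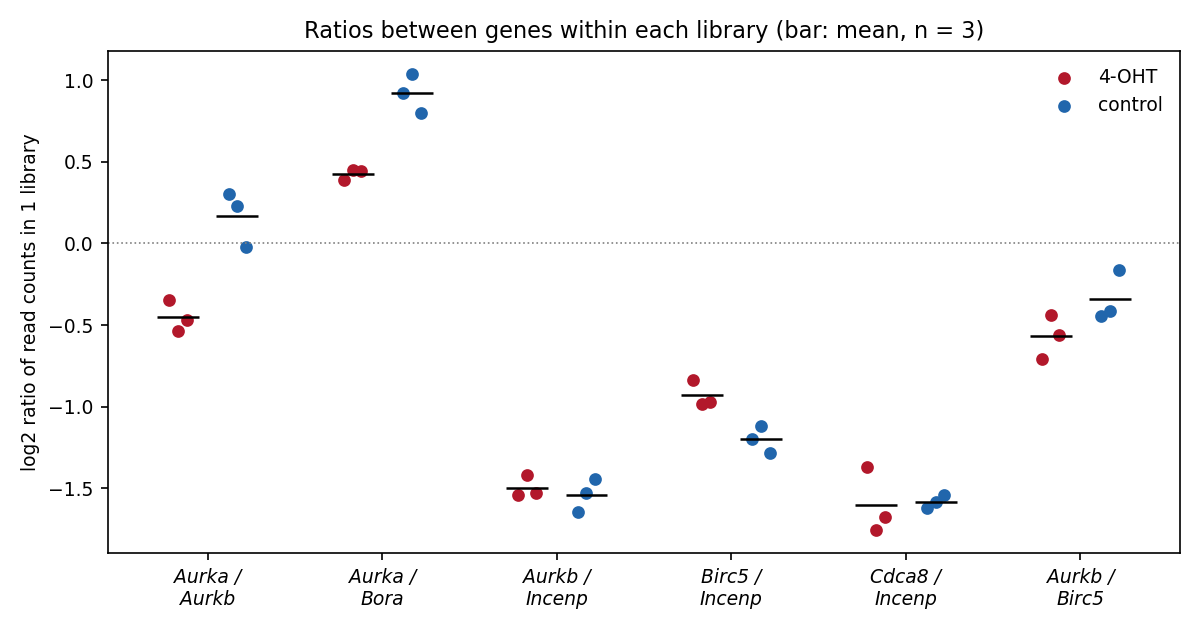
Log2 ratio of the read counts of 2 genes within 1 library (y axis) for the 6 pairs, 4-OHT left of control; points are libraries and bars the mean of 3. Groups are apart for Aurka to Aurkb, Aurka to Bora and Birc5 to Incenp and overlap for the other 3 pairs.

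The genes with the most similar profile were sought for Aurka and Aurkb among 8769 tested genes with a mean of at least 10 CPM. Likeness was the root mean square difference, over the 6 libraries, of log2 CPM relative to the control mean. Nearest to Aurka were Miip, at a distance of 0.088, Ccnf (0.108), the gene of the F-box protein cyclin F, Cep89 (0.123), which encodes a centrosomal protein, Aldh1a1 (0.123), a retinaldehyde dehydrogenase gene, and Cdc20 (0.129), whose product activates the anaphase-promoting complex. The nearest tested member, Bora, was at 0.356 from Aurka. Nearest to Aurkb were Asns (0.058), which encodes asparagine synthetase, Cks2 (0.059), the gene of a Cdk-binding protein, Cntfr (0.064), a cytokine receptor gene, Ugt3a2 (0.071), a glycosyltransferase gene, and Tmem79 (0.074). Incenp was at 0.076 from Aurkb, Bora at 0.132, Cdca8 at 0.157, Birc5 at 0.199 and Aurka at 0.450. The distance describes likeness in 6 libraries that share 2 conditions. The 5 genes nearest to each kinase were picked by distance from 8769 and the members were not, so their distances are not ranked together.

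Genes that act with the Aurora kinases were examined in 7 lists with 73 genes, of which 66 were tested. The test called 29 of them lower and 4 higher, and 33 missed the threshold, with a median log2 fold change of -0.10. The counts of each list below stand against 5.17% lower and 4.61% higher among all genes tested. The lists were chosen with earlier results of these data known, so a larger share in them is no independent result.

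Of 11 partners, activators and targets of Aurora A, 7 were lower and 1 was higher (edgeR, median -0.45). Tpx2, whose product activates Aurora A and targets it to the spindle, was at 132.3, 126.5 and 136.8 CPM after 4-OHT, against 218.9, 211.6 and 211.3 CPM in control cells. The groups did not overlap, and the log2 fold change was -0.70 (SE 0.04), a value between those of Aurka and Bora. Plk1, the kinase that Aurora A and Bora activate, changed by -1.36 (SE 0.07). Hmmr, which encodes a spindle protein that works with Tpx2, changed by -0.91, the phosphatase gene Cdc25b by -0.76, the microtubule polymerase gene Ckap5 by -0.60, its partner Tacc3 by -0.45 and the kinesin gene Kif11 by -0.44, all log2 fold changes. Ajuba, a LIM protein gene, was the gene called higher (0.14). That call was lost without 3 of the 6 libraries, each left out in turn, and in DESeq2 (adjusted p up to 0.204). Cep192 (-0.13), the centrosomal scaffold of Aurora A, Pak1 (-0.03) and Nedd9 (0.19) did not pass.

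Of 11 tested genes that recruit or relocate the passenger complex, 4 were lower and 1 was higher (median -0.12). Kif20a, the kinesin that carries the complex to the central spindle, was at 58.5, 49.6 and 55.2 CPM after 4-OHT, against 100.3, 107.3 and 108.0 CPM in control cells (log2 fold change -0.95, SE 0.06). Sgol1, the gene of shugoshin, which docks the complex at centromeres, changed by -0.55 (SE 0.07) on the same scale. Bub1, whose kinase product marks the histone that shugoshin binds, was above control, at 118.4, 114.5 and 116.8 CPM after 4-OHT and 102.5, 93.8 and 103.4 CPM in control cells. These groups did not overlap (0.22 on the log2 scale, SE 0.05, adjusted p = 0.0014 by edgeR, and at most 0.045 over 13 alternatives). Cbx5 (-0.12) and Ran (-0.12) were lower by small amounts, and each call was lost under 3 of 13 alternatives (adjusted p up to 0.148 for both). Sgol2 (-0.30), Ttk (0.06) and the ubiquitin ligase genes Cul3 (0.08), Klhl13 (-0.24) and Klhl21 (0.14) did not pass, nor did Klhl9, at 85.4 ± 9.48 CPM after 4-OHT and 85.5 ± 6.78 CPM in control cells (SD, n = 3 each). Gsg2, the gene of haspin, whose mark on histone H3 survivin reads, is listed at 0 in every library. A 0 throughout may come from how the authors counted reads and is not read here as absent expression.

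Among genes grouped here as substrates of Aurora B at the central spindle and midbody, 6 of 7 tested genes were lower and 1 was higher (median -0.50). Whether each product is phosphorylated by Aurora B or lies there in these cells was not tested. Prc1, the microtubule bundler of the central spindle, stood at 83.9, 80.0 and 86.0 CPM after 4-OHT, against 154.4, 159.9 and 166.3 CPM in control cells (log2 fold change -0.94, SE 0.05). The centralspindlin genes Kif23 and Racgap1 changed by -0.73 (SE 0.04) and -0.50 (SE 0.04) and the chromokinesin gene Kif4 by -0.66 (SE 0.07), all log2 fold changes. Stmn1 (-0.21), a microtubule destabiliser gene, and Ect2 (-0.14), a RhoA exchange factor gene of cytokinesis, were also lower, and Chmp4c (0.26), an ESCRT gene of the abscission checkpoint, was higher. The Ect2 call was lost under 4 and the Chmp4c call under 5 of 13 alternatives (adjusted p up to 0.209 for Ect2 and 0.297 for Chmp4c).

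Among substrates at the centromere and kinetochore, 4 of 9 were lower and 0 higher (edgeR, median -0.12; 5 did not pass). Cenpa, the centromeric histone H3 variant, stood at 40.9, 34.6 and 40.1 CPM after 4-OHT, against 101.7, 101.0 and 99.9 CPM in control cells (log2 fold change -1.39, SE 0.07). The kinesin gene Cenpe changed by -0.94 (SE 0.05), the microtubule depolymerase gene Kif2c by -0.60 (SE 0.07) and the kinetochore scaffold gene Casc5 by -0.50 (SE 0.06), all log2 fold changes. Genes of the outer kinetochore that did not pass were Ndc80 (0.03), Dsn1 (0.13), Zwint (0.09), Ska1 (-0.12) and Ska3 (0.03). A difference between the lists was not tested.

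Of 12 tested genes of phosphatases that oppose Aurora kinases, 3 were lower and 1 was higher (median -0.02). Cdca2, which encodes a chromatin-targeting subunit of protein phosphatase 1, was at 35.6, 37.6 and 38.0 CPM after 4-OHT, against 61.1, 58.9 and 56.7 CPM in control cells (log2 fold change -0.67, SE 0.07). The other calls, Ppp2r5e (-0.20), Ppp6r2 (-0.36) and Ppp1cb (0.15), were each lost in DESeq2 and without at least 1 library (adjusted p up to 0.275 for Ppp2r5e, 0.282 for Ppp6r2 and 0.079 for Ppp1cb). Ppp6c (0.10), the catalytic subunit gene of the phosphatase that acts on Aurora A, did not pass, and Ppp2r5d is listed at 0 in every library, which is likewise not read as absent expression.

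Of 11 tested ubiquitin ligase factors, 4 were lower and 0 higher (edgeR, median -0.07; 7 did not pass). Those lower were Cdc20 (-1.17, SE 0.06) and Fzr1 (-0.65, SE 0.07), the genes of the activators of the anaphase-promoting complex, and Ube2c (-0.85) and Ube2s (-0.64), those of its ubiquitin-conjugating enzymes. The core subunit genes Anapc2 (-0.09), Anapc10 (0.33), Anapc11 (0.12), Cdc16 (-0.07), Cdc23 (0.10) and Cdc27 (-0.02) did not pass, nor did Btrc (0.07), a ligase gene for Bora, and Fbxw7 is listed at 0 in every library, with the same limit as for Gsg2.

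Birc5 belongs by its BIR domain to the inhibitor of apoptosis family. Of 5 other tested genes of that family 1 was lower and 0 were higher (edgeR, median 0.11; 4 did not pass). Birc6, which encodes a giant ubiquitin ligase, stood at 120.1, 122.5 and 104.9 CPM after 4-OHT, against 133.7, 142.7 and 138.3 CPM in control cells (log2 fold change -0.26, SE 0.05, edgeR adjusted p = 0.00012). The fold change of Birc5 was -0.27. Xiap (0.01), Birc2 (0.16), Birc3 (0.11) and Naip2 (0.29) did not pass, and Birc7, Naip1, Naip5 and Naip6 had too few reads to be tested.

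**Figure D4:**
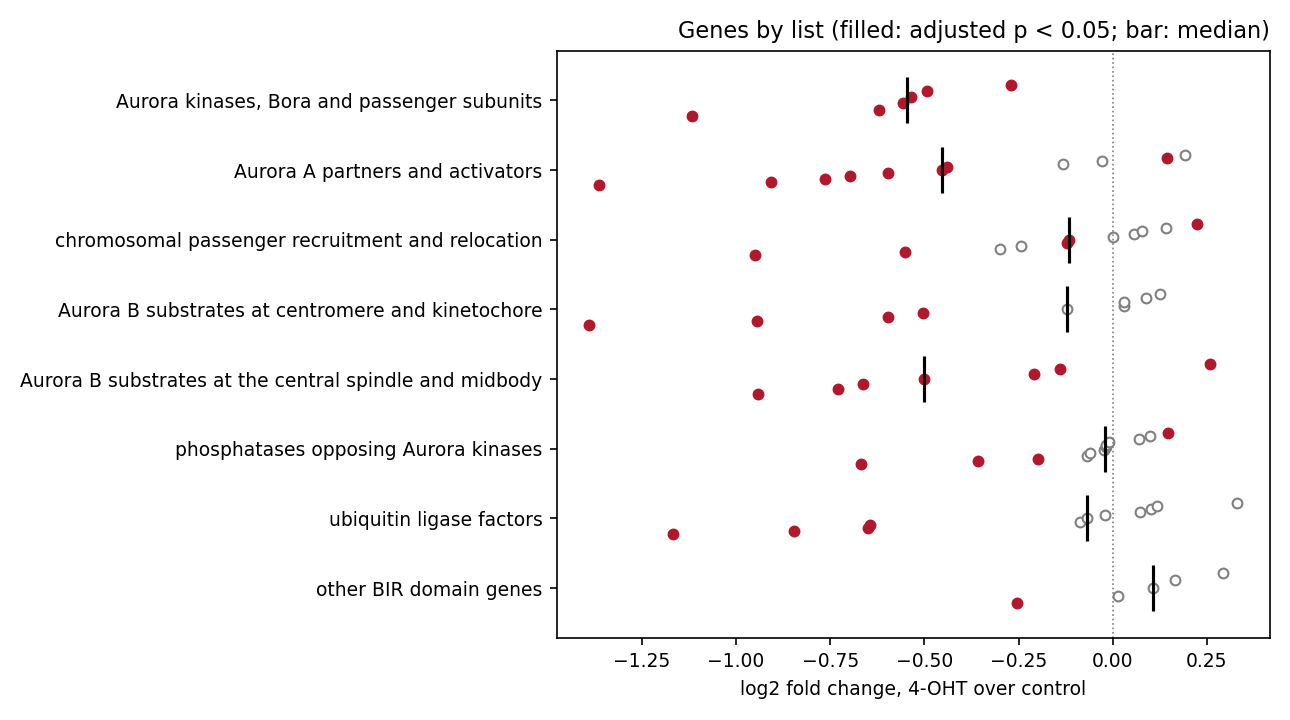
Log2 fold change of 4-OHT over control (x axis) for the 6 tested Aurora and passenger genes and for the tested genes of 7 lists; filled points passed an adjusted p of 0.05 and bars are medians. The median lies at -0.55 for the top group, at -0.45 for the Aurora A partners and at -0.50 for the central spindle substrates, and the other lists have medians between -0.12 and 0.11.

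Library totals lay between 5859826 and 5913942 reads. Lin9 itself was counted at 108, 107 and 101 reads after 4-OHT and at 156, 124 and 159 in control cells, which is 71.1% of the control level (-0.49 on the log2 scale, SE 0.11, adjusted p = 0.0011 by edgeR). Which exons this count takes in is not given in the sources used here, and how complete the deletion was in these libraries was not tested. Of 8 epithelial and lung markers, 7 had at least 1 CPM, summing to 6047 to 6217 CPM after 4-OHT and 6182 to 6267 CPM in control cells, and the alveolar marker Sftpc had no reads. Of these 7, the lung marker Nkx2-1 was at only 4.74 CPM after 4-OHT and 6.51 CPM in control cells. It did not pass the test (adjusted p = 0.198 by edgeR). The sum is carried by Krt8, Krt18 and Krt19, which did not pass the test, while 3 of the 8 were lower: Epcam, at 171.2 CPM after 4-OHT and 223.2 CPM in control cells (-0.38 on the log2 scale, adjusted p = 4.4e-12 by edgeR), Krt7 (-0.25, adjusted p = 9.4e-10) and Cdh1 (-0.14, adjusted p = 0.0010). The part of these epithelial changes in the results above was not tested. The 7 fibroblast markers summed to 5.57 to 8.48 CPM after 4-OHT and 7.54 to 9.76 CPM in control cells, with no reads of Lum. The 5 endothelial markers summed to 9.62 to 9.84 CPM after 4-OHT and 8.04 to 10.6 CPM in control cells, and the 6 leukocyte markers to 5.09 to 6.27 CPM after 4-OHT and 3.26 to 9.41 CPM in control cells, with no reads of Cd3e.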

How the data were processed

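Polyadenylated RNA of 6 KPL libraries was analysed, and the 27 ChIP-seq samples of the series were not used here. The authors deposited a matrix of raw read counts per gene, in whole numbers and not normalised. The authors' deposited comparison table holds log2 fold changes and log2 mean CPM and, for each gene, a p-value and an FDR, per the file headers. Which test gave them, which program counted reads and whether strand was used is not given in the sources used here. Per the submitters' processing notes, the tools include edgeR, bedtools 2.26.0, TopHat2 2.1.0 and Bowtie 1.1.2, and the builds include GRCm38.p6, with no roles stated.

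Repeated lines (27) were dropped. Counts were tested with edgeR 4.0.16 in R 4.3.3 (filterByExpr with minimum count 10 and minimum total 15, TMM, robust quasi-likelihood F test, two-sided, Benjamini-Hochberg over 13355 genes). Alternatives were other scalings and filters, a replicate block, DESeq2 1.42.0, limma-voom (limma 3.58.1) and leaving out each library. Within each group, every pair of libraries varied beyond counting noise (chi-square divided by its degrees of freedom was 1.26 to 1.48), so no library was merged with another. Ratios between genes were tested by exact permutation.

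The members and lists were chosen with earlier results of these data known. Named were all members, called genes of each list with others given by value, and the 5 nearest profiles to Aurka and Aurkb, without predicted genes and pseudogenes. Promoters were taken from RefSeq (GRCm38.p6). Floors cover counting error only.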

Additional observations from a re-analysis of the deposited data

How the results depend on the processing

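Each of the 6 fold changes kept its direction and its side of the threshold under all 13 alternatives. Leaving out 1 library at a time gave -1.16 to -1.07 for Aurka, -0.57 to -0.41 for Aurkb, -0.57 to -0.48 for Incenp, -0.61 to -0.51 for Cdca8, -0.64 to -0.61 for Bora and -0.31 to -0.22 for Birc5. Over the 13 alternatives the highest adjusted p was 0.016, that of Birc5 in DESeq2. Over all genes DESeq2 called 362 lower and 208 higher, against 691 and 616 in edgeR, and without 1 library the number was 508 to 643 lower and 403 to 542 higher, with 403 without control replicate 1; the cause was not tested. The median over all genes moved by less than 0.1 on the log2 scale under each scaling. Without a filter on low counts Aurkc had an edgeR adjusted p of 0.695 on its 1 read. The ratios of Aurkb and Cdca8 to Incenp changed sign without single libraries, over -0.0097 to 0.09 and -0.14 to 0.06, and that of Aurkb to Birc5 lay between -0.29 and -0.14. The CHR matches in the member windows all lie after the start. A search of only the 100 bases before the start therefore had to find 0 of 4, where 6.13% of all windows hold them. CCAAT was found there in 2 of 4 member windows, against 18.9% of all windows.

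Same-numbered libraries of the groups did not deviate together (correlation of deviations from the group means 0.036, 0.032 and -0.062), so the numbers are not taken as pairs. With a replicate block 665 genes were lower and 579 higher, and all 6 members stayed called, with -1.12 for Aurka and -0.27 for Birc5.

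The exact permutation tests of ratios could not go below p = 0.1 with 3 libraries per group, and the read depth limits what can be seen of Aurkc.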
